A study of Rattus norvegicus with 16 samples.

Results

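Osteoblasts lay down bone matrix and let it mineralise, and some of them become embedded in it as osteocytes. The set described here holds 8 genes used to recognise these cells: Sp7, Bglap, Ibsp, Ifitm5, Dmp1, Mepe, Phex and Sost. They were chosen by name from the gene table of an RNA sequencing study of rat knee cartilage, and each was represented by 1 row among 23552 genes. The table covers 16 libraries, with 4 in each of 4 groups, all from rats aged 10 weeks. A first treated group was osteoarthritic cartilage given a coacervate (a liquid phase that separates from a polymer solution) with cells and drug. A second was osteoarthritic cartilage given hyaluronic acid (HA), a polysaccharide of joint fluid, with cells and drug. They are called coacervate and HA below, and carry CCD and HCD in their library names. The remaining groups were osteoarthritic cartilage, whose library names read PBS, and healthy cartilage, whose names read Sham. The labels give neither the strain, the way osteoarthritis was produced, the cells, the drug nor the make-up of the coacervate. They do not say whether replicates are separate animals, so p-values measure only the spread between these libraries, which may be technical.

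In textbook accounts Sp7 (osterix) is the transcription factor that commits precursors to the osteoblast fate, downstream of Runx2. Osteoblasts then secrete osteocalcin (Bglap) and bone sialoprotein (Ibsp), and carry the small membrane protein Ifitm5 (Bril). Osteocytes make Dmp1, Mepe and the membrane peptidase Phex, which act on mineralisation and on phosphate handling, and sclerostin (Sost), a secreted inhibitor of Wnt signalling that restrains bone formation. Articular cartilage contains chondrocytes in place of these cells and rests on a plate of bone.

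By the deposited coordinates (build rn6), Mepe (chr14:6782012-6793558), Ibsp (chr14:6801204-6813945) and Dmp1 (chr14:6889856-6900733) are neighbours on the minus strand. They lie within 118722 bases, with no other gene of the table between them. The other members are Bglap (chr2:187741770-187742747), Sp7 (chr7:143958858-143967484), Ifitm5 (chr1:213744796-213745748) and Sost (chr10:89897087-89900131) on the minus strand, and Phex (chrX:40460047-40717982) on the plus strand. These spans are whole genes with their introns, and none overlaps another gene of the table.

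RefSeq promoters (build GRCr8, 250 bases before the start of the gene and 50 after it) matched 6 of the 8 genes, all but Sp7 and Phex. The promoters of Bglap, Mepe and Sost are shown because Bglap had a pattern of its own across libraries and Mepe and Sost varied together, as described below. Capitals mark the core letters bound by Runx factors (TGTGGT, or ACCACA on the other strand) and the TATA box (TATAAA, or TTTATA on the other strand).
Bglap, chr2:176137269-176137568, minus strand: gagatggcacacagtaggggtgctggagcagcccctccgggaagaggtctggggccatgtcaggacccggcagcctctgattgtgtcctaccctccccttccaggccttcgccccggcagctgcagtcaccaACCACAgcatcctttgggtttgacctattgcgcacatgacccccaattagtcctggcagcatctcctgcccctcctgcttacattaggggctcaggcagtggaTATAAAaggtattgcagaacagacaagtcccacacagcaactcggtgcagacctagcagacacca
Mepe, chr14:5736809-5737108, minus strand: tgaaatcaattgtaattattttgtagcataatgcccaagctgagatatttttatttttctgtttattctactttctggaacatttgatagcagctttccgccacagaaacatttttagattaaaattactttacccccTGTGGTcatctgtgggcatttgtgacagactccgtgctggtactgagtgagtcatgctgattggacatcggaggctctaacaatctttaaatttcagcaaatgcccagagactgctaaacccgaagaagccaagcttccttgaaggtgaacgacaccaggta
Sost, chr10:87415717-87416016, minus strand: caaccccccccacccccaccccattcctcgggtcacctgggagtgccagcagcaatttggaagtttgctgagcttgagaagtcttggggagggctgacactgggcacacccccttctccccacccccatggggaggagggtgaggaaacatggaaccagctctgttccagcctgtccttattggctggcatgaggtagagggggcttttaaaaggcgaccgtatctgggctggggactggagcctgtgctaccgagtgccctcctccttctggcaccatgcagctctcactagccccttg

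The Runx letters were present in 17.3% of all 33469 rat promoters of this length and in 2 of the 6 matched members. In Bglap they began 118 bases before the start (as ACCACA) and in Mepe 112 bases before it (as TGTGGT). The longer form TGTGGTT, which contains the core, stood in 5.57% of promoters and among the members in Bglap alone. The TATA letters stood in 14.2% of promoters, and among the members in Bglap, 15 bases before the start, and in Ibsp, as TTTATA 39 bases before it. None of these letters occurred in the windows of Sost, Dmp1 and Ifitm5. A match is a run of letters and was not tested for binding.

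All 8 genes had an FPKM (fragments scaled to gene length and library size) of at least 1 in all 16 libraries. On this scale, which corrects for gene length, Ibsp was the most abundant member with a mean of 549 over the libraries, rank 96 of the 23552 genes. Bglap followed with a mean FPKM of 327 (rank 170), Dmp1 with 102 (rank 575), Mepe with 83.1 (rank 727) and Sost with 38.5 (rank 1767). Ifitm5 (12.4), Phex (12.2) and Sp7 (8.996) were the lowest by mean FPKM. This order was kept in 16 of 16 libraries between Ibsp and Bglap, Bglap and Dmp1, Mepe and Sost, and Sost and Ifitm5. Dmp1 exceeded Mepe in 14 of 16 libraries and Phex exceeded Sp7 in 14, so these orders held in most libraries, though the ranges overlapped. Ifitm5 exceeded Phex in 8 of 16, so that pair cannot be ordered.

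The libraries held 36988722 to 50725189 counts. Markers of cartilage were present: Col2a1, the main collagen of cartilage, had 169 to 593 FPKM and Acan, its large proteoglycan, 8.14 to 38.9. Of 16 chondrocyte markers 15 passed the filter on low values, and at most 1 was listed at 0 in any library. Markers of other tissues were present too: haemoglobin genes took 9.57% to 20.6% of the counts, and Acp5 and Ctsk, enzymes of the bone-resorbing osteoclast, had 187 to 509 and 300.1 to 855 FPKM. The ratio of Col2a1 to Ibsp FPKM was 0.364 in osteoarthritic library 2, 0.442 in osteoarthritic library 3 and 0.421 to 1.42 in the others. Principal component 1, with 32.5% of the variance, set osteoarthritic libraries 2 and 3 at 69.6 and 58.9 and the other 14 at -32.3 to 12.7. Their haemoglobin share was 20.6% and 20.0%, against 9.57% to 15.6% in the other 14 libraries. Their 84 ribosomal protein genes lay on average 0.88 and 0.79 above the mean on the log2 scale, against -0.36 to 0.18 in the others. Most of the members' differences that involve osteoarthritic cartilage are therefore given with these libraries and without them.

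To compare a gene between libraries, its counts were brought to a common library size with TMM (normalised CPM), a scale with no correction for length. No member passed the test in any of the 6 comparisons (48 tests by edgeR's quasi-likelihood method, adjusted p over 14337 genes, threshold 0.05). Of all genes tested, the same rule called 0.502% for osteoarthritic against healthy, 0% for HA against osteoarthritic, 0.146% for coacervate against osteoarthritic, 0% for coacervate against HA, 0.16% for HA against healthy and 0% for coacervate against healthy. DESeq2 and limma on log2(FPKM + 1) also called 0 of the 8 members in each of these comparisons. Of all genes, DESeq2 called 417 for osteoarthritic against healthy, 797 for coacervate against osteoarthritic and 158 for HA against healthy. In limma these counts were 21, 0 and 14. The smallest DESeq2 adjusted p of a member was 0.0534, for Bglap in coacervate against osteoarthritic. In bulk tissue, fewer cells of a type and less RNA per cell cannot be told apart. The log2 intervals below show what size of difference these libraries leave possible for each gene, and a p over the threshold does not show that levels were equal.

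**Figure D1:**
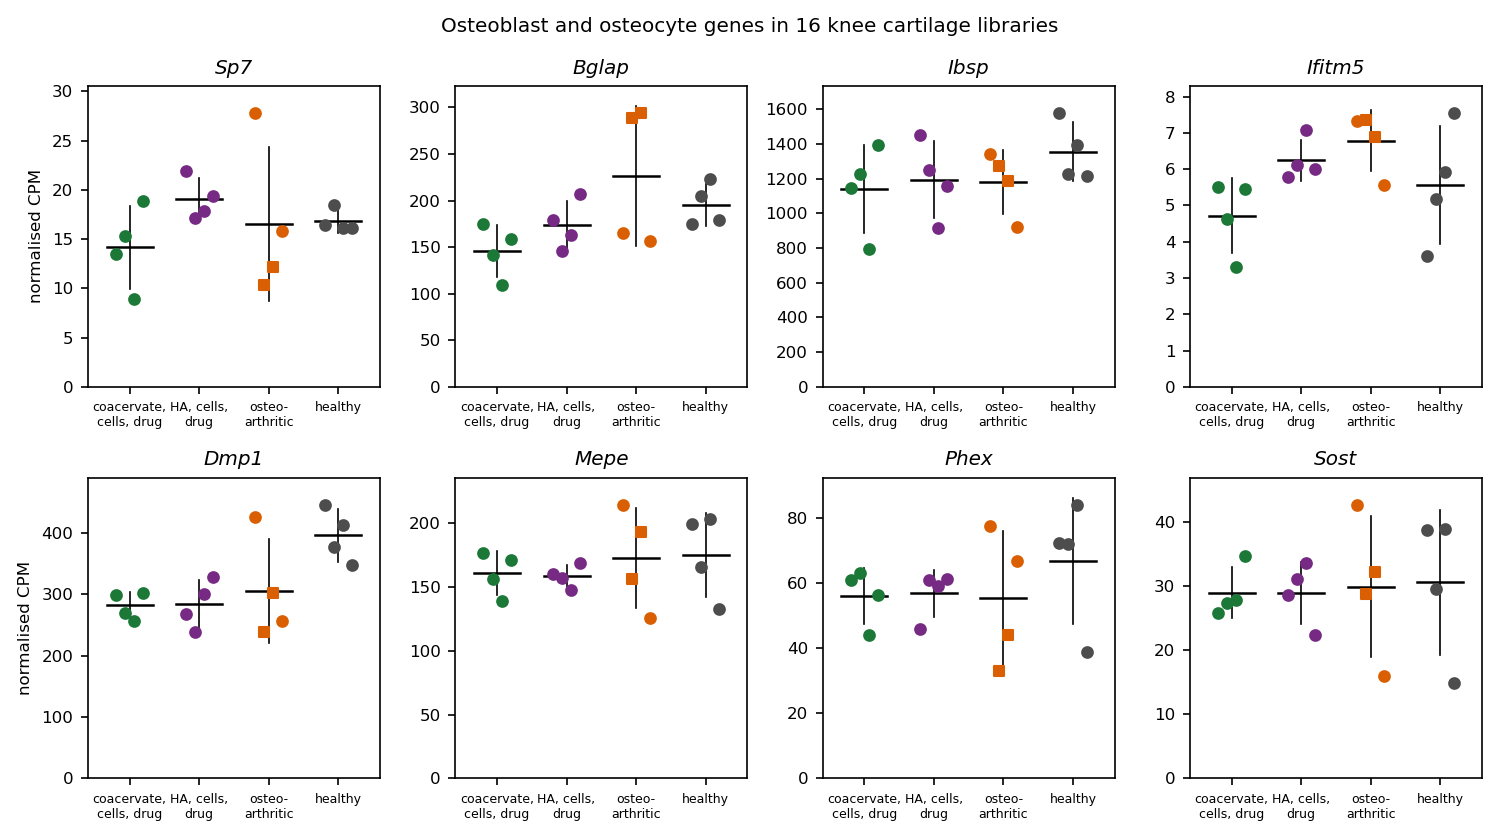
Normalised CPM (vertical axis, from 0) of each gene in each library by group; horizontal lines are means, vertical lines 1 SD (n = 4), and squares mark osteoarthritic libraries 2 and 3. Healthy Dmp1 lies at 348 to 446 CPM, above all coacervate and HA libraries, and Bglap is highest in osteoarthritic libraries 2 and 3 (289 and 294 CPM).

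Dmp1, an acidic matrix protein that osteocytes secrete, was the member furthest from healthy cartilage. In coacervate libraries 1 to 4 it had 299, 269, 257 and 302 CPM. In HA libraries it had 268, 238, 301 and 329 CPM. In osteoarthritic libraries it had 425, 238, 303 and 256 CPM, and in healthy libraries 446, 377, 413 and 348 CPM. All coacervate and all HA libraries were below every healthy library, while the osteoarthritic group overlapped the healthy one through its library 1. Of all genes, 3.66% were without overlap between coacervate and healthy, 9.83% between HA and healthy and 6.33% between osteoarthritic and healthy. The mean was 282 ± 22.0 CPM in coacervate, 284 ± 39.1 in HA, 306 ± 84.4 in osteoarthritic and 396 ± 42.6 in healthy cartilage (SD, n = 4 each). The log2 fold change against healthy was -0.49 ± 0.16 (SE) for coacervate, with a 95% interval of -0.83 to -0.15 and an edgeR adjusted p of 0.9998. It was -0.48 ± 0.16 for HA, with an interval of -0.82 to -0.14 and an edgeR adjusted p of 0.380. For osteoarthritic cartilage it was -0.37 ± 0.16, with an interval of -0.72 to -0.03 and an edgeR adjusted p of 0.252. These 3 comparisons share their healthy libraries. Without osteoarthritic library 1 the osteoarthritic difference from healthy was -0.57 and passed (edgeR adjusted p = 0.0342), where 1122 of 14337 genes did. Without osteoarthritic libraries 2 and 3 it was -0.22 (edgeR adjusted p = 0.586). HA and coacervate minus osteoarthritic were -0.11 and -0.12 with all libraries, and -0.27 and -0.28 with osteoarthritic libraries 2 and 3 left out.

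Markers of fibroblasts and tendon had the opposite sign to Dmp1 in the same comparisons. All 11 tested of 12 had positive log2 fold changes against healthy in each of the 3 other groups, and none of the 12 was at 0 in any library. Their summed FPKM was 846 to 1788 in coacervate, 1161 to 1686 in HA, 804 to 1781 in osteoarthritic and 603 to 909 in healthy libraries. Against healthy, Dpt, Mfap5 and Cthrc1, genes of fibrous matrix, rose in osteoarthritic cartilage (log2 fold changes 1.26, 1.06 and 1.002; edgeR adjusted p = 0.0466, 0.0290 and 0.0421), and Dpt rose in HA cartilage (1.44, edgeR adjusted p = 0.0453). Without osteoarthritic libraries 2 and 3 the osteoarthritic values of Dpt, Mfap5 and Cthrc1 were 1.37, 1.02 and 1.097 (edgeR adjusted p = 0.0403, 0.0501 and 0.0358). Of 27 alternatives they passed in 10, 16 and 12, and Dpt in HA cartilage in 13, so these calls lay close to the threshold. The part of such tissue in the Dmp1 values was not tested.

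Mepe, a matrix phosphoglycoprotein of osteocytes, was the steadiest member, with a 1.70-fold range of normalised CPM over the 16 libraries. It had 177, 156, 139 and 172 CPM in coacervate and 159.9, 157, 148 and 169 CPM in HA libraries. It had 214, 156, 193 and 126 CPM in osteoarthritic and 199, 166, 203 and 133 CPM in healthy libraries. All groups overlapped, with the widest spread in osteoarthritic and healthy cartilage. Its log2 fold changes ran from -0.15 (HA against healthy) to 0.02 (coacervate against HA), each with an SE of 0.16. With osteoarthritic libraries 2 and 3 left out it differed by -0.04 for osteoarthritic against healthy, -0.11 for HA against osteoarthritic and -0.08 for coacervate against osteoarthritic.

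Sost had 25.8, 27.4, 27.9 and 34.7 CPM in coacervate and 28.7, 31.2, 33.6 and 22.3 CPM in HA libraries. It had 42.7, 28.8, 32.2 and 16.04 CPM in osteoarthritic and 38.8, 29.6, 39.0 and 14.9 CPM in healthy libraries. Library 4 of the osteoarthritic and library 4 of the healthy group were the lowest of all 16, and the groups overlapped throughout. The log2 differences were small, from -0.08 to 0.00, but their SE of 0.28 left wide intervals: coacervate against healthy was -0.08 with an interval of -0.68 to 0.52. Without osteoarthritic libraries 2 and 3 the osteoarthritic minus healthy difference was -0.06, and HA and coacervate minus osteoarthritic were -0.03 each. Of 7 tested genes on a list of Wnt targets, Ccn5, a secreted matrix-associated protein, rose in osteoarthritic and in HA cartilage against healthy (log2 fold changes 1.55 and 1.55; edgeR adjusted p = 0.0115 and 0.0258). These Ccn5 values without osteoarthritic libraries 2 and 3 were 1.83 and 1.55 (edgeR adjusted p = 0.00662 and 0.0113), and Ccn5 passed in 24 and 20 of 27 alternatives. The other 6 did not pass in any comparison.

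Phex, whose loss in humans causes a phosphate-wasting rickets, had 60.9, 63.0, 43.8 and 56.3 CPM in coacervate and 45.8, 60.8, 59.1 and 61.2 CPM in HA libraries. It had 77.5, 32.8, 43.9 and 66.7 CPM in osteoarthritic and 72.1, 71.8, 83.9 and 38.8 CPM in healthy libraries. Osteoarthritic library 2 was the lowest of all and healthy library 4 the next, and the groups overlapped. The log2 fold change was -0.27 ± 0.25 for osteoarthritic against healthy, with an interval of -0.80 to 0.26. With all libraries, HA and coacervate minus osteoarthritic were 0.04 and 0.02. Without osteoarthritic libraries 2 and 3, osteoarthritic minus healthy was 0.11 ± 0.24. HA and coacervate minus osteoarthritic were then -0.35 and -0.36.

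Bglap, an osteoblast product used as a serum marker of bone formation, had its lowest group mean in coacervate cartilage. It had 175.05, 141, 109 and 158 CPM in coacervate and 179, 146, 163 and 207 CPM in HA libraries. It had 165, 289, 294 and 157 CPM in osteoarthritic and 174, 204, 223 and 179 CPM in healthy libraries. The high mean of the osteoarthritic group came from its libraries 2 and 3, and its other libraries lay within the coacervate range. Coacervate minus osteoarthritic was -0.63 ± 0.21 on the log2 scale, with an interval of -1.07 to -0.19, an unadjusted p of 0.00766 and an edgeR adjusted p of 0.137. Without osteoarthritic libraries 2 and 3 it was -0.14 ± 0.17 (edgeR adjusted p = 0.761). It passed without osteoarthritic library 1 (-0.77, edgeR adjusted p = 0.0317), where 2054 of 14337 genes did. Without osteoarthritic library 4 it passed too (-0.79, edgeR adjusted p = 0.0369), where 1368 of 14337 genes did. Osteoarthritic minus healthy was 0.21 ± 0.21 with all libraries and -0.28 ± 0.17 without libraries 2 and 3. HA minus osteoarthritic was -0.38 with all libraries and 0.11 without osteoarthritic libraries 2 and 3. The haemoglobin and ribosomal values of these libraries are those given above, and their part in the Bglap level was not tested.

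Within osteoarthritic libraries 2 and 3 the members parted ways. By rank of normalised CPM among the 16 libraries, Bglap stood at 2 and 1 there and Ifitm5 at 2 and 5. Phex ranked 16 and 13, Sp7 15 and 14, Dmp1 16 and 7, Mepe 11 and 4, Sost 9 and 6 and Ibsp 6 and 11. The ratio of Bglap to Phex FPKM was 76.3 and 58.0 in them, against 18.4 to 39.9 in the other 14 libraries. The ratio of Bglap to Dmp1 FPKM was 6.78 and 5.42, against 2.17 to 3.74. From the ratio of counts to FPKM, the length the authors used was about 464 bases for Ifitm5, 558 for Bglap, 766 for Sost, 1862 for Sp7, 1999 for Mepe, 2210 for Ibsp, 3119 for Dmp1 and 4832 for Phex. Whether length bears on the difference was not tested.

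Ifitm5, which carries the mutation of a rare brittle bone disease in humans, was also low in coacervate cartilage. It had 5.50, 4.62, 3.31 and 5.45 CPM in coacervate and 5.79, 6.12, 7.07 and 5.9999 CPM in HA libraries. It had 7.32, 7.37, 6.87 and 5.57 CPM in osteoarthritic and 3.61, 5.19, 5.91 and 7.54 CPM in healthy libraries. Every coacervate library was below every HA and every osteoarthritic library, but healthy libraries overlapped each of the other groups. Of all genes, 9.71% were without overlap between coacervate and HA and 5.6% between coacervate and osteoarthritic. Coacervate minus osteoarthritic was -0.52 ± 0.21 on the log2 scale, with an interval of -0.97 to -0.07, an unadjusted p of 0.0251 and an edgeR adjusted p of 0.184. Without osteoarthritic libraries 2 and 3 it was -0.45 ± 0.26 (edgeR adjusted p = 0.501). Osteoarthritic minus healthy was 0.29 with all libraries and 0.21 without those libraries. HA minus osteoarthritic was -0.12 and -0.05 in the same order. Coacervate minus HA was -0.40 ± 0.21, with an interval of -0.85 to 0.04 and an edgeR adjusted p of 0.543. It is the member with the fewest counts, 157 to 352 per library, and reads shared with other Ifitm genes may have been split in a way that is not stated.

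Ibsp, a sialoprotein that binds mineral and integrins, had 1145, 1225, 794 and 1395 CPM in coacervate and 1455, 1248, 919 and 1159 CPM in HA libraries. It had 1345, 1273, 1186 and 923 CPM in osteoarthritic and 1577, 1230.0, 1397 and 1215 CPM in healthy libraries. The groups overlapped, and coacervate library 3 was the lowest. The log2 fold change against healthy was -0.25 ± 0.18 for coacervate, -0.18 ± 0.18 for HA and -0.20 ± 0.18 for osteoarthritic cartilage. None of these passed (edgeR adjusted p = 0.9998, 0.962 and 0.575). The osteoarthritic value without libraries 2 and 3 was -0.26 ± 0.23. HA and coacervate minus osteoarthritic were 0.02 and -0.05 with all libraries, and 0.07 and 0.01 without osteoarthritic libraries 2 and 3.

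Sp7 had the widest range across libraries, 3.13-fold in normalised CPM, while the SD of log2 CPM was larger for Sost (0.42) than for Sp7 (0.40). It had 13.5, 15.4, 8.87 and 18.9 CPM in coacervate and 21.9, 17.1, 17.9 and 19.4 CPM in HA libraries. It had 27.8, 10.4, 12.2 and 15.8 CPM in osteoarthritic and 16.4, 18.5, 16.1 and 16.2 CPM in healthy libraries. The osteoarthritic group held both the highest library and some of the lowest. Coacervate minus HA was -0.43 ± 0.26 on the log2 scale (interval -0.98 to 0.13, edgeR adjusted p = 0.638), and osteoarthritic minus healthy was -0.02 ± 0.26, or 0.38 ± 0.25 without osteoarthritic libraries 2 and 3. Coacervate minus osteoarthritic was -0.22 ± 0.26, and -0.63 ± 0.25 without those libraries (edgeR adjusted p = 0.338). HA minus osteoarthritic was 0.21 ± 0.26 with all libraries, and ran from -0.20 to 0.56 over the alternatives.

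**Figure D2:**
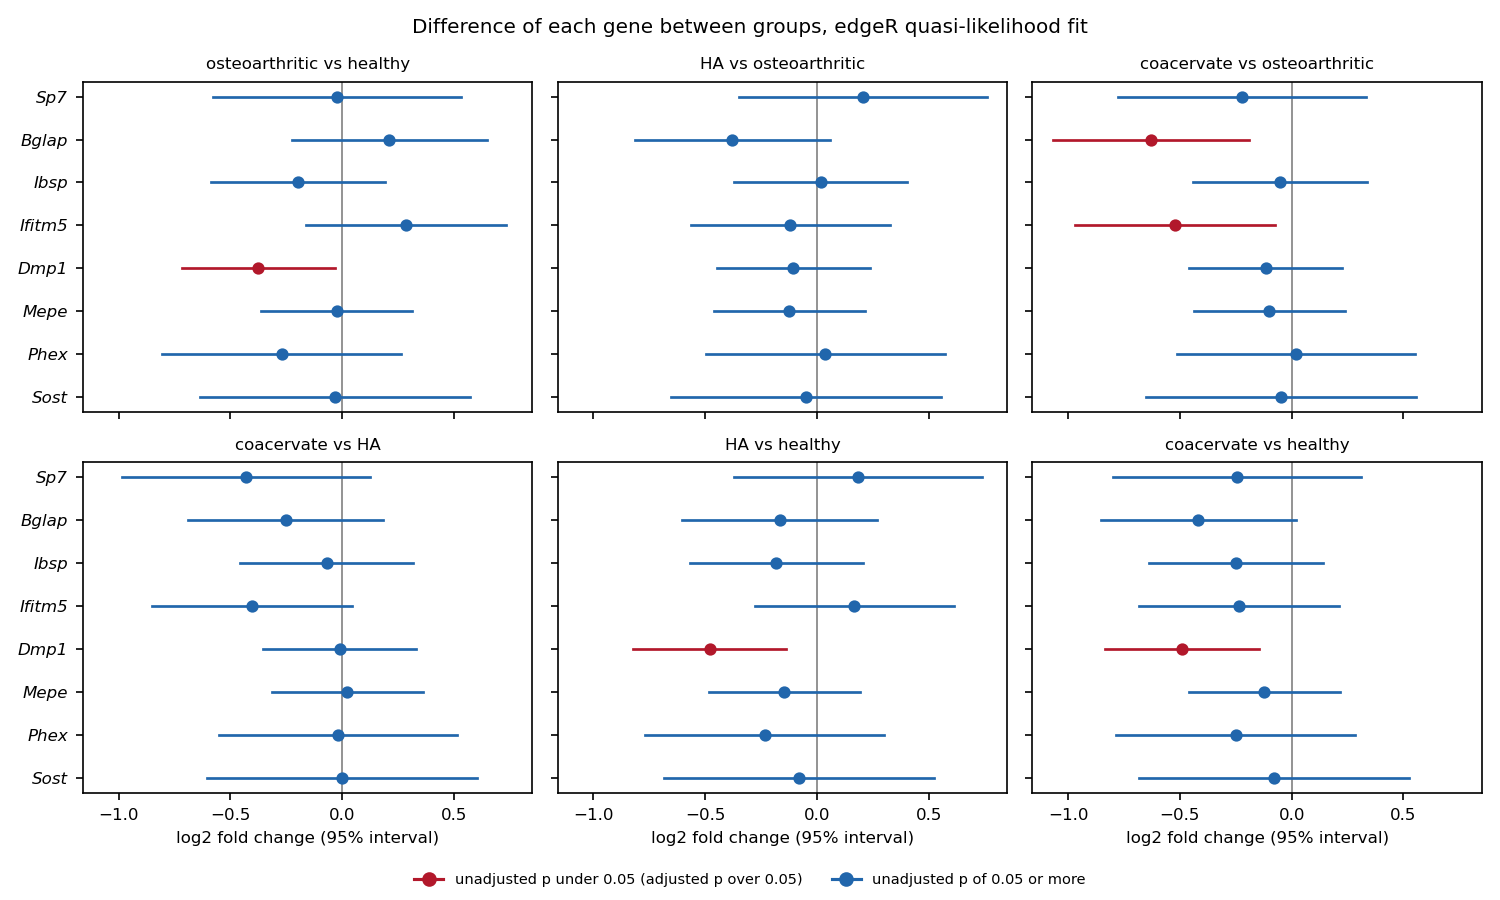
Log2 fold change (horizontal axis; points, edgeR estimates; lines, 95% intervals) of each gene in the 6 comparisons; positive values mean higher in the group named first. Of 48 intervals 43 include 0, and the 5 that do not, in red, belong to Dmp1 (3 comparisons with healthy), Bglap and Ifitm5 (coacervate against osteoarthritic).

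The members were then set beside all genes tested. The 6 comparisons share groups, so they are not independent of each other. For osteoarthritic against healthy, 0 of 8 members passed, where 72 of 14337 genes did. The members had 1 unadjusted p under 0.05, that of Dmp1, against 2548 (17.8%) of all genes. Their median log2 fold change was -0.03 against 0.01 for all genes, and its sign rested on single libraries: it was 0.07 without osteoarthritic library 4, 0.02 without osteoarthritic library 2 or healthy library 3, 0.01 without healthy library 1, -0.25 and -0.06 without osteoarthritic library 1 or 3 and -0.19 without healthy library 4. Every member overlapped between the groups. For HA against osteoarthritic, 0 members and 0 genes passed in edgeR, with 0 members and 909 genes (6.34%) at an unadjusted p under 0.05, while DESeq2 called 8 genes and limma 1. No member was without overlap, against 1.9% of genes. The member median was -0.08, with 5 of 8 members and 52.2% of all genes negative, and the median of all genes was -0.01. Without osteoarthritic library 1 the member median was 0.07 with 3 negative, and without osteoarthritic library 2 or 4 it was -0.12 or -0.21. On log2(FPKM + 1) it was 0.11 with 1 negative, where the median of all genes was 0.12.

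For coacervate against osteoarthritic, 0 members passed, where 21 genes did, and 2 members, Bglap and Ifitm5, had an unadjusted p under 0.05, against 3131 (21.8%) of all genes. The share of members is thus close to that of all genes. Of the members, 7 had negative log2 fold changes (median -0.11), against 51.2% of all genes, and Ifitm5 alone did not overlap. Without osteoarthritic library 1 only 2 members were negative (median 0.04), and on log2(FPKM + 1) 3 were (median 0.03, against 0.09 for all genes). The median was -0.25 without osteoarthritic library 4, -0.20 without osteoarthritic library 2, -0.05 without coacervate library 3 and -0.21 without osteoarthritic libraries 2 and 3. For coacervate against HA, 0 members and 0 genes passed in edgeR, with 0 members and 1485 genes (10.4%) at an unadjusted p under 0.05, while DESeq2 called 325 genes and limma 0. The member median was -0.04 with 6 negative, and 0.02 with 3 negative without coacervate library 3. Ifitm5 alone did not overlap here either. Skeletal muscle markers, 11 of 11, had positive log2 fold changes in coacervate against osteoarthritic and against HA cartilage, and none of them passed. Their summed FPKM was 2974 to 9169 in coacervate, 2093 to 2637 in HA, 2002 to 3010 in osteoarthritic and 2916 to 4270 in healthy libraries. The highest value was in coacervate library 3, and none of these markers was at 0 in any library. That library had the lowest level of 4 members (Bglap, Ibsp, Sp7 and Ifitm5), and the part of muscle in these values was not tested.

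For HA against healthy, 0 members passed, where 23 genes did. Dmp1 alone had an unadjusted p under 0.05 in edgeR, against 1183 (8.25%) of all genes, and alone did not overlap. The member median was -0.16, and it was -0.09 without healthy library 1 or 3 and -0.24 without healthy library 4. For coacervate against healthy, 0 members and 0 genes passed in edgeR, with 1 member, Dmp1, and 552 genes (3.85%) at an unadjusted p under 0.05, while DESeq2 called 15 genes and limma 0. All 8 members had negative log2 fold changes in coacervate cartilage, from -0.49 for Dmp1 to -0.08 for Sost, with a median of -0.25. The median was -0.10 without coacervate library 3, and 7 of 8 were negative without healthy library 1 or 3. Among all genes 48.9% were negative, with a median of 0.00. Dmp1 alone did not overlap. Over the 48 member tests, an exact two-sided permutation of the libraries reached its smallest possible p of 0.0286 in these 4 cases without overlap, with no correction for the number of tests.

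Other genes of the same cells gave few calls. On a list of 15 further osteoblast genes, none passed in any of the 6 comparisons, and their medians ran from -0.16 to 0.06 on the log2 scale. Runx2, which acts upstream of Sp7, averaged 60.1 ± 2.47 CPM in coacervate, 57.0 ± 3.52 in HA, 54.0 ± 14.6 in osteoarthritic and 67.2 ± 5.54 in healthy cartilage (SD, n = 4 each). Its healthy values lay above all coacervate and HA values. Of all genes, 3.66% and 9.83% were without overlap in those comparisons with healthy. Runx2 had 38.9 and 46.7 CPM in osteoarthritic libraries 2 and 3, and 72.4 and 58.0 in osteoarthritic libraries 1 and 4. Alpl, the phosphatase that frees phosphate for mineral, differed by at most 0.14 on the log2 scale in any comparison. Col1a1, the main collagen of bone, averaged 1564 FPKM over the libraries and its log2 fold changes ran from -0.16 to 0.35. It had 5492 and 5443 CPM in osteoarthritic libraries 2 and 3, and 13937 and 15697 in osteoarthritic libraries 1 and 4. Spp1 (osteopontin), a relative of Ibsp, Dmp1 and Mepe that osteoclasts and macrophages make too, had 586 to 1228 CPM in coacervate, 1409 to 3038 in HA, 1595 to 1866 in osteoarthritic and 1178 to 1525 in healthy libraries. Its coacervate values lay below all HA and osteoarthritic values, with log2 fold changes of -1.06 and -0.93 (edgeR adjusted p = 0.138 and 0.101). Of all genes, 9.71% and 5.6% were without overlap in these comparisons.

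Of 12 further osteocyte genes none passed in any comparison, and their medians ran from -0.28 to 0.09 on the log2 scale. Against healthy, 8 of the 12 had positive log2 fold changes in osteoarthritic, 8 in HA and 3 in coacervate cartilage, where Dmp1 was negative in each. Tnfsf11 (RANKL), a signal for osteoclasts that is not particular to osteocytes, had a mean FPKM of 1.16 (range 0.63 to 2.08). Its coacervate minus osteoarthritic log2 fold change was -0.88 (edgeR adjusted p = 0.183). It had 1.83 and 2.40 CPM in osteoarthritic libraries 2 and 3, 1.27 and 1.33 in osteoarthritic libraries 1 and 4 and 0.68 to 1.13 in coacervate libraries. Its decoy receptor Tnfrsf11b averaged 7.05 FPKM and differed by -0.44 in the same comparison (edgeR adjusted p = 0.230). Of 12 genes of mineralisation, Anxa5, a calcium-binding annexin found in matrix vesicles and in many cell types, rose in osteoarthritic cartilage against healthy (log2 fold change 0.97, edgeR adjusted p = 0.0498; 1.23 and 0.0192 without osteoarthritic libraries 2 and 3). It passed in 10 of 27 alternatives, and the other 11 did not pass in any comparison.

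Of 14 osteoclast genes none passed in any comparison. Acp5 averaged 471 ± 104 CPM in coacervate, 583 ± 149.9 in HA, 620.1 ± 83.5 in osteoarthritic and 849.8 ± 49.6 in healthy cartilage (SD, n = 4 each). Every healthy value of Acp5 (812 CPM or more) lay above all values of the other groups (805 CPM or less). Of all genes, 3.66% were without overlap between coacervate and healthy, 9.83% between HA and healthy and 6.33% between osteoarthritic and healthy. The coacervate minus healthy log2 fold change of Acp5, -0.85, had an edgeR adjusted p of 0.696. Ctsk, a collagen-degrading protease of osteoclasts, differed by -0.59 in that comparison (edgeR adjusted p = 0.9998). Col10a1, a collagen of hypertrophic chondrocytes, cells that also express Ibsp and Sp7, had 47.6 to 128 CPM in coacervate, 119 to 185 in HA, 92.2 to 221 in osteoarthritic and 30.8 to 235 in healthy libraries. The cartilage genes Col2a1 and Acan had coacervate minus healthy log2 fold changes of -0.18 and 0.03, neither past the threshold (edgeR adjusted p = 0.9998 for each).

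**Figure D3:**
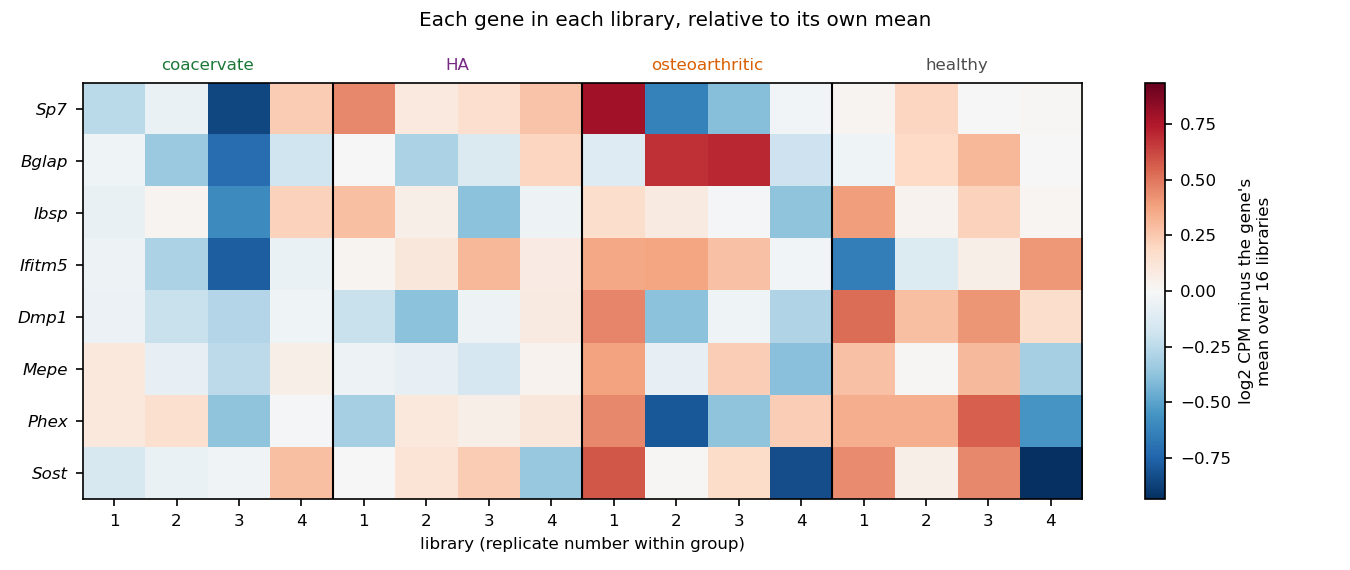
Log2 normalised CPM of each gene (rows) in each library (columns, by group and replicate number) minus the mean of that gene over the 16 libraries; red is above the mean and blue below. Coacervate library 3 is below the mean in all 8 genes, and osteoarthritic library 2 is high in Bglap and low in Phex and Sp7.

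Across libraries the members varied to different degrees. The mean of the 8 deviations ranged from -0.48 in coacervate library 3 to 0.38 in osteoarthritic library 1 on the log2 scale. The members took 0.135% of the counts in coacervate library 3 and 0.249% in healthy libraries 1 and 3, the extremes of the series. The spread within groups, as a coefficient of variation, was widest in osteoarthritic cartilage for 5 of the 8 genes. Over all 8 genes it was 12.3% to 47.4% in osteoarthritic, 7.80% to 29.5% in coacervate, 5.50% to 18.6% in HA and 6.82% to 37.0% in healthy cartilage.

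Of the 28 pairs of members, 23 had a positive Pearson r of log2 CPM over the 16 libraries, with a median of 0.38 and a range of -0.23 to 0.78. Only the osteocyte genes Mepe and Sost passed (r = 0.78, Spearman's rho = 0.69, permutation p = 0.00036, adjusted over 28 pairs 0.0101). Leaving out the 2 libraries furthest from the median of Mepe, osteoarthritic 1 and 4, gave r = 0.65. With deviations from the group means r was 0.81, and without osteoarthritic libraries 2 and 3 it was 0.79. No pair passed without osteoarthritic library 4. The next pairs were Dmp1 with Mepe (r = 0.66, rho = 0.64, permutation p = 0.00582, adjusted 0.0596) and Ibsp with Mepe (r = 0.65, rho = 0.57, permutation p = 0.00639, adjusted 0.0596), both among the neighbours on chromosome 14. Dmp1 and Mepe passed on deviations from the group means (r = 0.75, permutation p adjusted 0.0104). The third pair of neighbours, Ibsp and Dmp1, had r = 0.47 and rho = 0.35 (permutation p = 0.0653, adjusted 0.198). Bglap with Phex gave the lowest r, -0.23 (rho = -0.07, permutation p = 0.387, adjusted 0.602), which was 0.42 without osteoarthritic libraries 2 and 3.

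**Figure D4:**
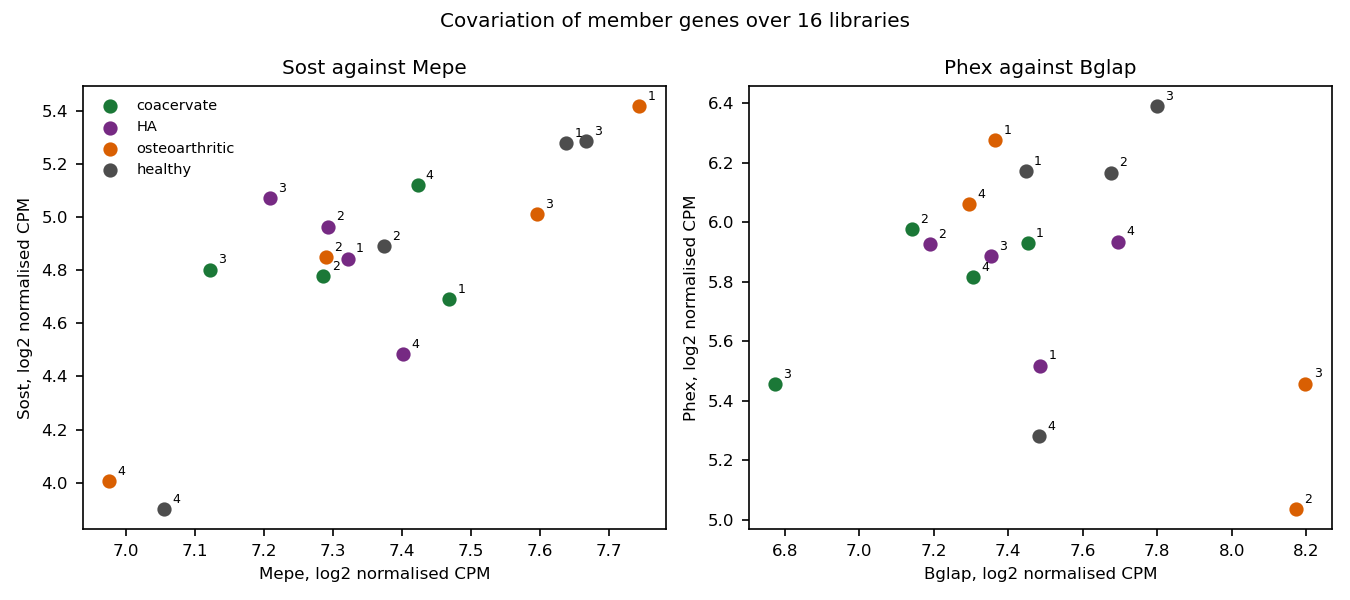
Log2 normalised CPM of Sost against Mepe (left) and of Phex against Bglap (right) in 16 libraries, coloured by group and numbered by replicate. Mepe and Sost run together (r = 0.78) with library 4 of the osteoarthritic and healthy groups at the low end, and osteoarthritic libraries 2 and 3 lie at the far right of the Bglap axis.

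Among tested genes outside the set, those most like the mean standardised level of the 8 members over the 16 libraries were Efnb1 (r = 0.79), Zfp64 (0.78), Cadm1 (0.78), Pth1r (0.78), Pard6g (0.77), Cpe (0.77), Pgbd5 (0.76), Dnmt3b (0.75), Pla2g5 (0.74) and Hoga1 (0.73), as Pearson r. Of these 10, Pth1r, the receptor for parathyroid hormone, is on the list of further osteoblast genes. It averaged 63.3 CPM in coacervate, 68.2 in HA, 77.4 in osteoarthritic and 77.3 in healthy cartilage, and did not pass in any comparison. These correlations share the libraries and their scaling with the members and are a description.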

How the data were processed

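RNA from knee cartilage was measured in 16 libraries. Per the labels' protocols, these were poly(A)-selected, dUTP-stranded libraries read from both ends on an Illumina sequencer. Build rn6 and the tools StringTie 2.1.6, HISAT2 2.2.1, edgeR, DESeq2 and cutadapt 1.9 appear in the submitters' processing notes, which leave the role of each unstated. The counting tool, annotation version and strand setting are not given in the sources used here. The deposited table gives a count per gene and library, which the authors did not normalise. FPKM, also deposited, is the authors' scaling of each gene to length and library size. Low counts were more often even than odd (6480 values of 2, 4576 of 3).

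From these, a gene was tested when 4 or more of the 16 libraries had an FPKM of 1 or more, which left 14337 genes, all 8 members included. Counts were tested with edgeR 4.0.16 (TMM scaling, quasi-likelihood F test, 4 group means in 1 fit of 16 libraries, R 4.3.3), with p-values adjusted by Benjamini and Hochberg over all tested genes at a threshold of 0.05. Log2 levels used a prior count of 2. The SE is the log2 fold change over the root of F. Pairs of members were compared by Pearson r with 1e+05 permutations. Alternatives used DESeq2 1.42.0, limma 3.58.1, other scalings and filters, a replicate block and omitted libraries. The procedure was run on simulated counts in which no library was made to stand apart. That run does not show how the procedure behaves with libraries that do. Intervals cover the spread between libraries, and no molecular identifiers mark PCR copies among the counted fragments. The members and the gene lists were chosen with earlier results of these data known. Genes named outside the set are a fixed panel of 11 markers, list genes that passed, and the 10 genes nearest the mean profile of the members, leaving out symbols of unnamed genes. A few list symbols without a row were not analysed here.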

Additional observations from a re-analysis of the deposited data

Results flagged for a closer look

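Each member was screened in each group of 4 libraries for a highest or lowest value far from the others, which chance gives in about 1 of 20 groups. In 32 such groups 2 values stood out. Phex in HA library 1 was 45.8 CPM, with the other HA libraries at 59.1 to 61.2. Sp7 in healthy library 2 was 18.5 CPM, with the other healthy libraries at 16.1 to 16.4, so the gap was small beside the spread of Sp7 in the other groups.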

How the results depend on the processing

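The count of members called was 0 in each of the 6 comparisons under edgeR with 3 other scalings, 2 other filters and only the groups compared, under DESeq2, limma with either pseudocount, and a replicate block (0 in all 6), and without osteoarthritic libraries 2 and 3. Leaving out 1 library gave 0 to 1 for osteoarthritic against healthy (Dmp1 without osteoarthritic library 1) and 0 to 1 for coacervate against osteoarthritic (Bglap without osteoarthritic library 1 or 4), and 0 elsewhere. Without osteoarthritic library 1, 1122 of 14337 genes passed in the former comparison and 2054 in the latter. Without osteoarthritic library 4, 1368 passed in the latter. The cause of these changes was not tested. Libraries with the same replicate number showed no greater likeness over all genes. Their deviations from the group means correlated at -0.39 to 0.21. The correlation was over 0.1 in 4 of 24 pairs with the same number and 20 of 72 with different numbers. Such correlations cannot exclude a batch shared by some libraries. Of 1344 log2 fold changes recomputed (48 results, 28 alternatives), 99 changed sign, in 26 results, none of them called. The pairs of members that passed numbered 1, against 3 with haemoglobin genes left out before scaling, 10 on log2(FPKM + 0.1), 2 on deviations from group means and 0 to 4 without 1 library. Over all genes the count called ranged with the setting from 8 to 1122 for osteoarthritic against healthy (72), 0 to 8 for HA against osteoarthritic (0), 0 to 2054 for coacervate against osteoarthritic (21), 0 to 325 for coacervate against HA (0), 0 to 390 for HA against healthy (23) and 0 to 15 for coacervate against healthy (0). On the FPKM scale the median of all genes moved by up to 0.16 (log2), and by at most 0.03 under the other alternatives. The 95% intervals of the members extend 0.34 to 0.60 (log2) to either side and carry no correction for the number of tests. Changes smaller than that were mostly not detectable here, and larger ones could still go uncalled. Bglap was uncalled at -0.63 for coacervate against osteoarthritic (edgeR adjusted p = 0.137), a difference that was -0.14 without osteoarthritic libraries 2 and 3.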
